A study of Rattus norvegicus with 11 samples.

Results

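Ultraconserved regions are stretches of DNA that are identical in human, mouse and rat, and the array used here carries a pair of probes for 481 of them. The probes were chosen by name: every non-control probe whose name begins with uc. was taken, and the probe ending in + and the probe ending in - of the same number were treated as the transcripts of the opposite strands of 1 region. This gave 962 probes, 481 for each strand, of 24684 probes on the array. The numbers ran from 1 to 483, and 2 numbers between them had no probe. Each probe had 1 spot on each array and no value was missing. The sign is that of the probe name, and where the regions lie in the rat genome, the bases of the probes and the relation of the strands to neighbouring genes were not analysed here.

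Many ultraconserved regions lie in or near genes of splicing factors, where some are exons whose inclusion sends the mRNA to decay, and near genes of developmental transcription factors, where some act as enhancers. A part of them is transcribed into non-coding RNAs, known as transcribed ultraconserved regions, from 1 strand or from both. Such RNAs are known mostly from tumours, where some are silenced by DNA methylation, bind microRNAs or respond to low oxygen.

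The trigeminal ganglion (TRG) holds the sensory neurons of the face. Male rats received 50 µl of complete Freund's adjuvant (CFA, killed mycobacteria in paraffin oil, 1 mg/ml) under the skin of 1 whisker pad while anaesthetised with ketamine and xylazine, and both ganglia were taken on day 7. The CFA (ipsilateral) group was rats 1, 2, 3, 5, 6 and 8 and the contralateral group was rats 1, 2, 3, 5 and 6. The contralateral ganglia thus came from injected, anaesthetised rats, and no uninjected rat was among the 11 arrays. Ribosomal RNA was removed and the RNA was labelled with random primers along whole transcripts, so that RNAs without a poly(A) tail can be labelled, and each ganglion was hybridised to 1 single-colour array.

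The arrays stood on 5 slides, taken here as arrays with the same scan time. Slide 1 held contralateral rat 3, slide 2 contralateral rats 5 and 6 with CFA rat 1, slide 3 contralateral rats 1 and 2, slide 4 CFA rats 2 and 3, and slide 5 CFA rats 5, 6 and 8. Only slide 2 held both groups. The tissue label was checked on marker genes: 8 of 10 sensory neuron markers had a probe and all 8 were well above background on every array. Markers of neighbouring tissues varied between arrays. The mean log2 signal of the anterior pituitary markers ran from 6.04 to 12.57 over the CFA arrays and from 6.26 to 11.85 over the contralateral arrays, and that of the central nervous system markers from 8.38 to 11.46 and from 8.27 to 11.10. In whole ganglia, fewer cells of a type and less RNA per cell cannot be told apart.

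Detection was counted first. A probe was called detected on an array where the scanner software marked its spot as well above background. Of the + probes, 129 (26.8%) were detected on all 11 arrays, 194 on 1 to 10 arrays and 158 on none. The - probes gave nearly the same counts, 134 (27.9%), 191 and 156. Ultraconserved-region probes were seen less often than mRNA probes, of which 79.6% were detected on all 11 arrays and 6.09% on none, and 76.5% of them lay in the dimmest class when all probes were split by mean signal into 3 classes of equal size. Of the others 22 were in the brightest class, 5 of the + strand and 17 of the - strand.

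The strands of a region were then set side by side. Both probes were detected on all 11 arrays in 46 regions and neither on any array in 55. In 40 regions the + probe was detected on every array and the - probe on none, and in 33 regions it was the other way round. These counts depended on the detection rule: with the scanner's less strict positive-and-significant flag they were 8 and 6, with 107 regions detected on both strands, and with a processed signal of 64 or more 11 regions had both. A strand was therefore seen on every array in 217 regions (45.1%), and in 171 of them this held for 1 strand. Among the 129 regions with a + probe on all arrays, 35.7% had the - probe on all arrays too, against 25.0% of the other 352 regions. Detection of one strand was thus more frequent where the other was detected, a description for which no test was made. Neighbours in number showed little of this: the next number had its + probe on all arrays after 30.2% of regions that had one and after 25.5% of those that had not, and for the - probe the shares were 25.8% and 28.9%.

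**Figure D1:**
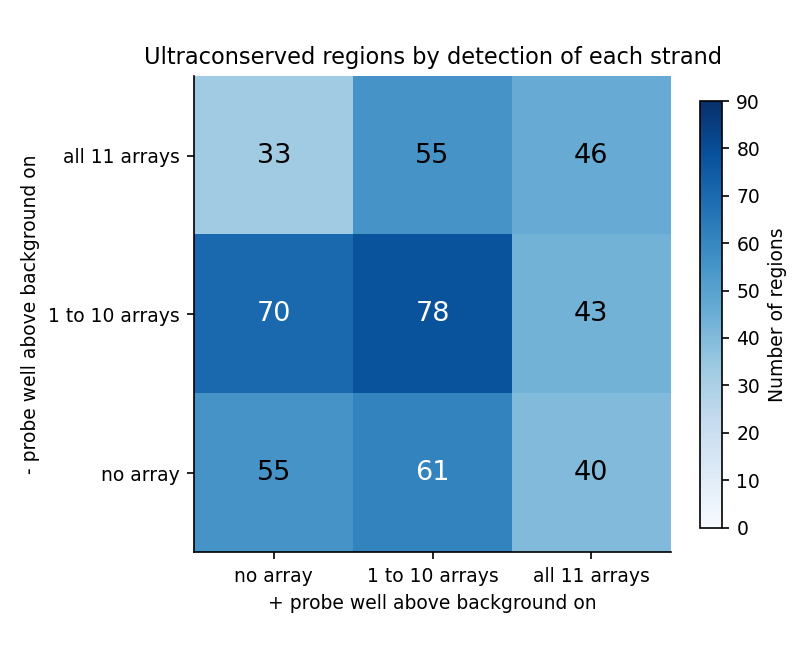
Number of the 481 ultraconserved regions by the number of arrays on which the + probe (x axis) and the - probe (y axis) were well above background. Both strands were seen on all 11 arrays in 46 regions, and 1 strand on all arrays with the other on none in 40 regions (+) and 33 regions (-).

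Regions with 1 strand on all arrays and the other on none are shown by those whose detected probe had the highest minimum signal. Their brightness follows from this choice. In uc.465 the - probe had a normalised log2 signal of 13.50, 13.36, 13.90, 14.11 and 14.02 in contralateral rats 1, 2, 3, 5 and 6, and in CFA ganglia a lowest value of 13.27, a median of 13.76 and a highest value of 14.63. The + probe of uc.465 was not well above background on any array. The same picture was seen in uc.84, whose - probe ran from 12.18 to 14.44 with contralateral rats 1 and 2 lowest at 12.41 and 12.18, and in uc.144, whose - probe ran from 10.72 to 11.82. The opposite picture, a + probe on every array and a - probe on none, was seen in uc.415, uc.428 and uc.432, whose + probes ran from 8.16 to 9.39, from 7.41 to 8.81 and from 7.20 to 8.66. In each of these 6 regions the groups overlapped in the detected strand and its change did not pass the test, with log2 changes (CFA over contralateral) of -0.50 in uc.428+ to 0.56 in uc.84-. Levels of different probes are not compared with each other, since a probe's brightness also depends on its bases.

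Signal from both strands at a steady level was found in uc.268, uc.188, uc.154 and uc.34. These are the regions whose dimmer probe had the highest minimum over the arrays. The + and - probes ran from 8.89 to 9.40 and from 13.40 to 13.65 in uc.268, from 7.91 to 8.44 and from 11.34 to 12.16 in uc.188, from 13.25 to 13.66 and from 7.73 to 8.36 in uc.154, and from 12.29 to 12.83 and from 7.67 to 8.47 in uc.34. Their log2 changes lay between -0.20 and 0.11, and none passed the test. On all 11 arrays 8 probes stayed above a log2 signal of 12, namely uc.34+, uc.154+ and uc.284+ of the + strand and uc.45-, uc.84-, uc.141-, uc.268- and uc.465- of the - strand.

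By the detection rule used here, some of the regions best known from tumours were detected on 1 strand and others on both. In cancer cells DNA methylation silences the RNAs of 3 of them. Of these, uc.283's + probe was detected on all arrays (4.83 to 5.73) and its - probe on none, while in uc.160 the - probe was detected on 10 arrays (3.55 to 5.69) and the + probe on none. In the last of them, uc.346's strands were detected on 10 arrays (+, 3.64 to 4.65) and 9 arrays (-, 3.73 to 4.76). The + probe of uc.73, known from leukaemia and colorectal tumours, was detected on all arrays (5.45 to 6.31) and the - probe on none. Of an RNA that rises in low oxygen, uc.475's + probe was detected on all arrays (6.91 to 7.87) and the - probe on 1. None of these probes passed the study's threshold, and the largest log2 change among them was -0.83 in uc.160- (adjusted p = 0.420, limma). Of the other regions known from tumours, described below, uc.339's + probe passed it with a log2 change of 1.86.

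An RNA known from liver tumours, uc.338's strands moved together but by slide. The + probe measured 5.90, 5.71, 5.91, 1.64 and 3.96 in contralateral rats 1, 2, 3, 5 and 6 and 2.73, 5.48, 5.51, 5.27, 5.47 and 5.56 in CFA rats 1, 2, 3, 5, 6 and 8. The - probe measured 4.75, 4.94, 5.39, 1.75 and 2.59 and then 2.498, 4.55, 4.46, 4.75, 4.57 and 4.70. Contralateral rats 5 and 6 and CFA rat 1 were the low arrays for both strands, and these are the arrays of slide 2. The spots of the 2 probes lay in rows 296 and 307 of 532 rows. In total 16 ultraconserved-region probes (1.66%, against 0.296% of all probes) were over 1 log2 lower on all 3 arrays of slide 2 than on every other array. All of them lay in rows 250 to 349. Some of all probes are averages of more than 1 spot and fewer lie in the dimmest class, so these shares are not of like sets. The part of the slide in these levels was not tested.

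The number of detected probes differed between arrays, and the groups overlapped. The + probes were detected in 32.2% to 53.6% on CFA arrays and in 38.3% to 54.1% on contralateral arrays, and the - probes in 34.1% to 53.0% and 37.4% to 57.0%. The share of all probes detected moved with it, from 73.4% to 85.0% on CFA arrays and from 75.7% to 85.9% on contralateral arrays. No ultraconserved-region probe was detected on every array of 1 group and on none of the other.

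In regions with both strands on all arrays, the strands tended to vary together. Over the 11 arrays the median Pearson's r between the + and the - probe of the same region was 0.35 in the 46 regions, with 35 of them above 0. It was 0.03 over the 2070 pairings of a + probe with the - probe of another of these regions, 52.9% of which were above 0. With the group means removed the medians were 0.43 and 0.04. The correlations are descriptions over arrays that share slides and normalisation. The strands resembled each other most in uc.75 (r = 0.98), uc.477 (0.94) and uc.472 (0.93), and least in uc.117 (-0.73), uc.308 (-0.60) and uc.417 (-0.59).

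In uc.75 the + probe measured 7.52, 7.46, 6.73, 7.24 and 7.88 in contralateral rats 1, 2, 3, 5 and 6 and 5.45, 7.46, 8.65, 8.00, 7.45 and 8.79 in CFA rats 1, 2, 3, 5, 6 and 8. The - probe measured 10.69, 10.35, 9.75, 10.30 and 11.14 in contralateral rats, and in CFA ganglia a lowest value of 8.59, a median of 11.21 and a highest value of 12.04. CFA rat 1 was lowest and CFA rats 3 and 8 were highest on both strands, while the groups overlapped (log2 changes of 0.27 and 0.43, adjusted p = 0.842 and 0.766, limma). The spots of the pair lay in rows 301 and 491, far from each other on the array.

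**Figure D2:**
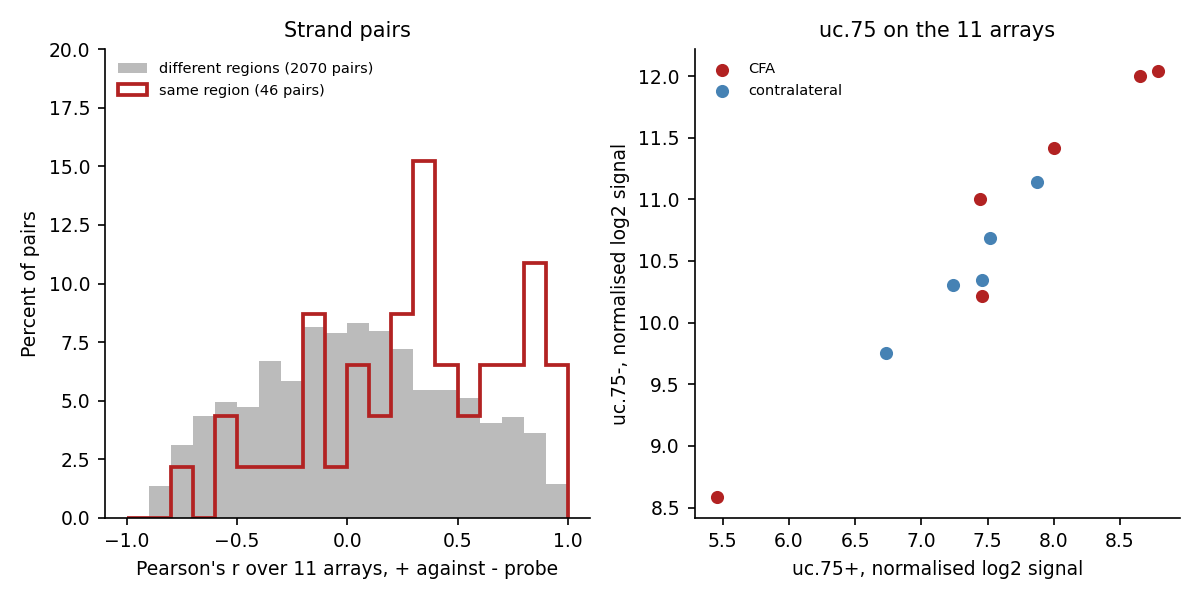
Left, Pearson's r over the 11 arrays between a + and a - probe, as percent of pairs, for the 46 pairs of the same region (red line) and the 2070 pairs of different regions (grey bars), all probes being detected on every array; the same-region pairs lie further to the right, with a median of 0.35 against 0.03. Right, the normalised log2 signal of uc.75- against uc.75+, 1 point per array, with CFA in red and contralateral in blue; both strands were lowest on the same CFA array.

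Other probes shared the profile of uc.75. Of the 262 other ultraconserved-region probes detected on all arrays, 18 (6.87%) had an r over 0.8 with uc.75-, against 4.54% of all probes detected on all arrays. Among the 18 were uc.75+, both strands of uc.420, uc.471 and uc.472, and uc.481+, uc.193- and uc.46-. The profile was chosen after its values had been seen, and no test was made of it. Of these uc.471+ measured 12.49, 12.48, 11.83, 12.21 and 12.83 in contralateral rats 1, 2, 3, 5 and 6 and 11.17, 11.88, 13.62, 13.34, 13.17 and 13.21 in CFA rats 1, 2, 3, 5, 6 and 8. CFA rats 1 and 2 and contralateral rat 3 were low and the other CFA rats high.

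Splicing factor genes that contain ultraconserved exons were set beside this profile. Of the 18 on the list 17 had a probe, all 17 were detected on every array, and 0 passed the study's threshold (median log2 change 0.10, against -0.04 over all probes). Their mean signal ran from 12.65 in CFA rat 1 to 13.32 in CFA rat 3 and followed uc.75- with a Pearson's r of 0.93 and a Spearman's rho of 0.95 over 11 arrays, and with r = 0.92 without the 2 arrays farthest from the median. The points are arrays that share slides and normalisation, and no p is given. The members were not alike: 6 of 17 had an r over 0.8 with uc.75-, among them Pcbp2 (0.98) and Ptbp2 (0.94), which had the widest ranges, 9 had an r from 0 to 0.8 and 2, Srsf3 (-0.59) and Tra2b (-0.03), an r below 0. Hnrnph1, which codes for a regulator of alternative splicing, had a log2 change of 0.49 ± 0.21 (SE, adjusted p = 0.455, limma) and Ptbp2, the neuronal polypyrimidine tract binding protein, ranged from 7.32 to 11.53. Of 32 developmental regulators with ultraconserved elements in or near them 20 had a probe, 15 were detected on every array, and 0 passed the study's threshold (median log2 change 0.01). Nr2f1 and Lmo4, transcriptional regulators of the nervous system, were steady at 14.55 to 15.18 and 15.14 to 15.73.

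Both strands of uc.477 moved with the mean of the central nervous system markers. The + probe was highest in CFA rat 3 at 10.05 and lowest in contralateral rat 2 at 5.09, and the - probe ran from 6.41 to 7.49. With the mean of the central nervous system markers, among them Gfap of astrocytes and Mog of oligodendrocytes, the r over 11 arrays was 0.83 for uc.477+ and 0.92 for uc.477-, and 0.89 and 0.94 without the 2 farthest arrays. The markers were not alike: Gfap ran from 10.13 to 15.33, Aqp4 from 9.14 to 13.66 and Mog from 6.43 to 11.01, but Neurod1 only from 4.86 to 5.97. Slc1a2 had a log2 change of -0.74, where the others had 0.05 to 0.35. The probe and the list were paired after the values were seen, and the r of single markers is not given. The mean of the markers was high in contralateral rats 1 and 3 and in CFA rats 1, 2 and 3, and its part in the level of uc.477 was not tested.

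The CFA side was then compared with the contralateral side. By the study's threshold, an unadjusted p of 0.05 or less with an absolute fold change over 2, 62 of the 962 probes (6.44%) were called, 29 higher and 33 lower in CFA, against a background of 2.02% over all probes. The number was 0 with no background correction, 0 with normexp and 9 with a floor of 16, settings for which the share over all probes is not given. In each direction the background was 1.15% (higher) and 0.863% (lower), and in the dimmest class of signal, where 54 of the 62 lay, it was 4.25%. Some probes of these backgrounds are averages of more than 1 spot, unlike the ultraconserved-region probes. Dim probes with 1 spot are set beside them by position below. The + strand had 36 of them (20 higher, 16 lower) and the - strand 26 (9 higher, 17 lower). A fit with the rat as a block used only the 5 rats with both sides, without CFA rat 8, and called 15 higher and 31 lower. Of these 46 probes 42 were among the 62. Leaving out CFA rat 8 without a block gave 20 higher and 32 lower, so the lower count is not that of the block alone. The share over all probes is not given for these fits. No probe passed an adjusted p of 0.05 (the smallest was 0.184), while 166 had an unadjusted p of 0.05 or less, against 10.8% over all probes. Without CFA rat 1, 16 probes passed the adjusted p (0.49% over all probes), and without contralateral rat 3, 1 did (0.0162%). Without CFA rat 1 no slide holds both groups, so that group and slide cannot be told apart in those 16. In 18 probes (1.87%, background 1.2%) the arrays of the groups did not overlap, and 9 of these passed the study's threshold. Leaving out an array makes this easier for every probe: the count was 74 (7.69%, 4.43% over all probes) without CFA rat 1, 46 (4.78%, 2.83%) and 41 (4.26%, 3.12%) without contralateral rats 5 and 6, and 28 (2.91%, 1.62%) without CFA rat 2. The median log2 change was -0.05 over the + probes and -0.06 over the - probes, and -0.04 over all probes.

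The direction of a change went with the place of the spot on the array. When the rows were split into 4 equal bands, the median log2 change of the ultraconserved-region probes was 0.28 in the first band, -0.06 in the second, -0.16 in the third and -0.31 in the last. Of the 29 probes that were higher, 26 lay in the first band and 3 in the second, and of the 33 that were lower, 27 lay in the last band, 4 in the second and 2 in the third. Other probes showed it as well: among all 1-spot probes of the dimmest class, 12.3% were called higher and 0 lower in the first band, and 10.3% were called lower in the last band. The ultraconserved-region probes, of all classes, were near these shares, with 26 of 238 higher in the first band and 27 of 243 lower in the last. With the median of each band and class of signal removed from every array, 43 probes passed the threshold (1.33% over all probes), and 18 of these were among the 62.

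**Figure D3:**
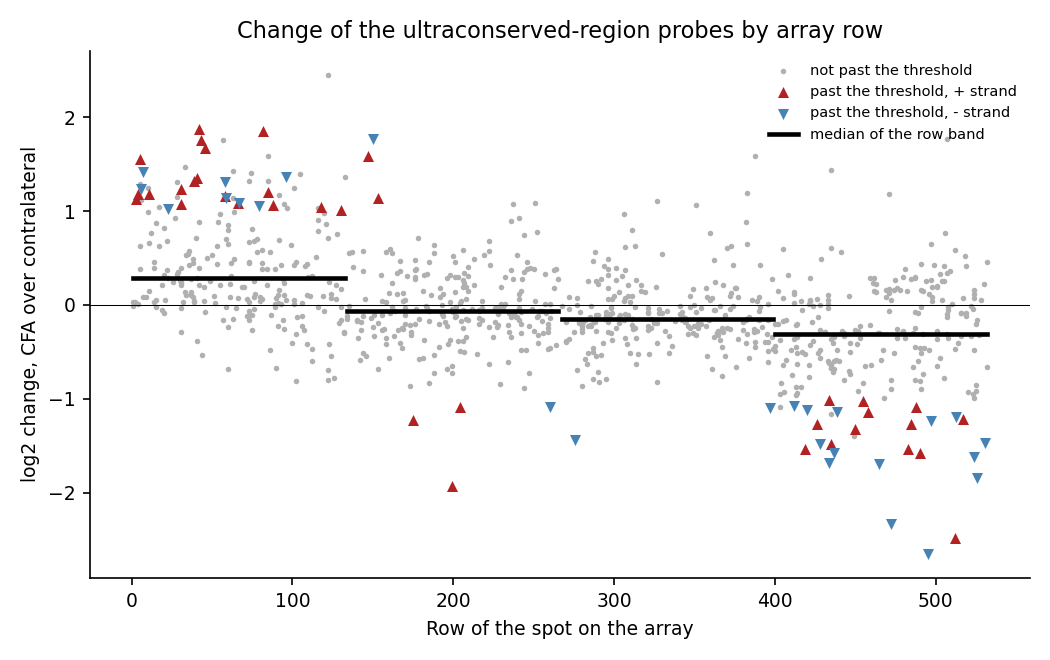
Log2 change (CFA over contralateral) of each of the 962 probes against the row of its spot, with the probes past the study's threshold as red (+ strand) and blue (- strand) triangles and the median of each row band as a black line. The higher probes lie in the first rows and the lower probes mostly in the last rows, and the band medians fall from 0.28 to -0.31.

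The called probes also followed the slides. The 29 higher probes had a median deviation from their own mean over the arrays of -1.88 and -1.77 in contralateral rats 1 and 2 (slide 3) and of -0.62 in contralateral rat 3 (slide 1). On slide 2 contralateral rats 5 and 6 (0.50 and 0.29) lay beside CFA rat 1 (0.63), and near the CFA arrays of the other slides (0.50 to 0.70). In the 33 lower probes CFA rat 1 (0.41) stood with the contralateral arrays (0.64 to 1.20), and the other CFA arrays were low (-0.96 to -0.75). On slide 2 alone, the median log2 difference between CFA rat 1 and the contralateral mean was 0.25 for the higher probes and -0.03 for the lower ones, where the medians over all arrays were 1.21 and -1.32. The sign there was that of the whole comparison in 23 of the 29 higher and in 18 of the 33 lower probes, and 9 of the 62 differed there by over 1 log2 in the same direction. With the slide as a block the difference is that of slide 2 alone, 1 CFA array against 2 contralateral arrays, and the lone CFA array is assumed to vary like the others. In that fit 68 probes passed the study's threshold (2.56% over all probes), 7 of them shared with the 62, and 16 passed the adjusted p (0.28% over all probes), so that these calls rest on CFA rat 1. In total 38 ultraconserved-region probes (3.95%, against 1.52% of all probes) were over 1 log2 lower on both arrays of slide 3 than on every other array. All of them lay in rows 3 to 120, and 12 of them were among the 29 higher probes. As for slide 2, the sets behind these shares differ in spots per probe and in brightness. The part of slide and position in the changes was not tested beyond these values.

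**Figure D4:**
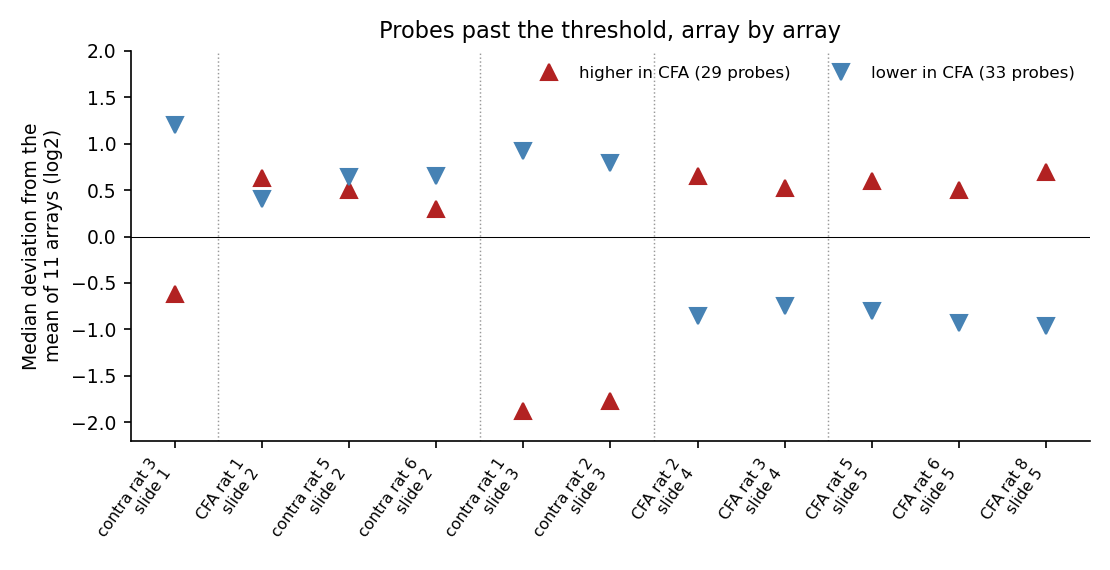
For each array, the median log2 deviation of the 29 higher probes (red) and of the 33 lower probes (blue) from the probe's own 11-array mean, with dotted lines between slides. On slide 2, the slide with both groups, the CFA array and the contralateral arrays lie together for both sets of probes.

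Of the higher probes, uc.237+ had the smallest p. It measured 1.89, 1.19, 1.55, 1.65 and 1.35 in contralateral rats 1, 2, 3, 5 and 6, and the CFA arrays had a lowest value of 2.29, a median of 2.70 and a highest value of 3.36. The groups did not overlap and the log2 change was 1.18 ± 0.20 (SE, adjusted p = 0.184 in limma, two-sided exact permutation p = 0.00216, the smallest that 462 splits can give). The permutation test takes all arrays as exchangeable, though only slide 2 held both groups. Where groups do not overlap its p is at or near the smallest possible, here and for the probes below, so it adds little to the lack of overlap. The change was 0.87 with row-band centring, 0.60 with centring within signal classes and 0.16 with no background correction, each below the threshold of the study. The probe was well above background on 1 CFA array and on no contralateral array, so that its CFA level is bounded only as at least 1.12-fold higher. The other named higher probes were as dim: uc.151+, uc.193+, uc.388+, uc.90+, uc.21- and uc.370- were detected on 1 to 4 CFA arrays and on no contralateral array, with log2 changes of 1.07 to 1.77 as measured and bounds of at least 1.01-fold to at least 1.79-fold higher. For uc.438- no array was well above background and no fold is given.

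Brighter probes were among the higher ones on the + strand. Of an RNA that binds microRNAs in lung tumours, uc.339's + probe measured 2.79, 3.10, 5.43, 6.77 and 6.11 in contralateral rats 1, 2, 3, 5 and 6 and 6.47 to 6.99 with a median of 6.68 in CFA. Contralateral rats 1 and 2, the arrays of slide 3, were lowest, and contralateral rat 5 lay within the CFA range. The log2 change was 1.86 ± 0.67 (SE, adjusted p = 0.415, limma). Its - probe, detected on all arrays at 5.00 to 5.94, had a change of -0.15 ± 0.20. The + probe of uc.470 measured 0.99, 1.34, 3.82, 4.67 and 4.44 in contralateral rats and 4.76 to 5.11 with a median of 4.92 in CFA, so that the groups did not overlap (1.87 ± 0.65, adjusted p = 0.403, limma, exact permutation p = 0.00216). The same contralateral arrays were lowest, and on slide 2 the difference was 0.50. The - probe of uc.470 ran from 3.31 to 5.07 and its change was 0.55 ± 0.24 (adjusted p = 0.458, limma).

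Of the 62 probes 6 were detected on all 11 arrays, 3 higher and 3 lower. The higher ones were uc.16+ (3.77 to 7.08 in contralateral and 6.78 to 7.16 in CFA), uc.48+ (2.67 to 5.87 and 5.79 to 6.38) and uc.132- (3.18 to 5.73 and 5.29 to 5.88). In each of them the spread was wide in the contralateral arrays and narrow in CFA, and contralateral rat 2 or rat 1 was lowest. The lower ones were uc.246+ (5.81 to 7.07 in contralateral and 4.55 to 5.93 in CFA), uc.456- (6.41 to 8.28 and 5.24 to 7.07) and uc.463+ (6.07 to 7.17 and 4.51 to 7.03). In uc.246+ CFA rat 1 at 5.93 was the highest CFA array and lay within the contralateral range, and its log2 change was -1.27 ± 0.29 over all arrays (adjusted p = 0.239, limma) and 0.08 on slide 2.

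Among the lower probes uc.98- had the smallest p. It measured 4.83, 4.68, 5.05, 4.30 and 4.06 in contralateral rats 1, 2, 3, 5 and 6, and 2.27 to 3.70 with a median of 2.73 in CFA. The groups did not overlap, and the change was -1.70 ± 0.30 on the log2 scale (adjusted p = 0.196, limma, exact permutation p = 0.00433). It was detected on 4 contralateral arrays and no CFA array, with a bound of at least 2.87-fold lower in CFA. The log2 change was -0.57 on slide 2 and -0.44 with no background correction, both smaller than this bound. The - probe of uc.392 measured 4.21, 4.13, 3.96, 3.45 and 3.71 in contralateral rats and 1.24 to 3.43 with a median of 1.78 in CFA. It was detected on 3 contralateral arrays and no CFA array, with a bound of at least 2.02-fold lower. On slide 2 the values of uc.392- were 3.45 and 3.71 against 3.43, and with no background correction its log2 change was -0.38. The bounds of uc.98- and uc.392- thus hold only for the normalised signals of the main processing. These 2 were the only called probes undetected in 1 group whose bound was over 2-fold.

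Larger changes were measured in uc.47- and uc.400- and in uc.225's + probe, all in the last row band. In uc.47- the contralateral arrays measured 5.91, 5.71, 6.12, 5.55 and 5.38 and CFA rats 1, 2, 3, 5, 6 and 8 measured 5.38, 3.35, 3.93, 1.43, 1.95 and 2.41, a change of -2.65 ± 0.61 (adjusted p = 0.239, limma). CFA rat 1 thus lay with the contralateral arrays, the arrays of slide 4 lower and those of slide 5 lowest. For uc.225's + probe (-2.48 ± 0.48, adjusted p = 0.196, limma) CFA rat 1 was at 4.30 and the other CFA rats at 1.28 to 2.69. For uc.400- (-2.34 ± 0.52, adjusted p = 0.239, limma) CFA rat 1 was at 4.23 and CFA rat 3, the next highest, at 3.396. On slide 2 the differences were -0.08 for uc.47-, -0.0062 for uc.225's + probe and -0.13 for uc.400-. The + probe of uc.47, detected on all arrays and 6 rows from the - probe, had a change of -0.60 ± 0.23 (adjusted p = 0.435, limma).

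The probes uc.24-, uc.21- and uc.163's + probe were picked by a filter. They are the 3 probes that passed the threshold before and after the centring by position and differed by over 1 log2 in the same direction on slide 2. The arrays of slide 2 are part of the whole comparison, so their difference is not a second comparison. The - probe of uc.24 measured 3.46, 3.13, 2.81, 3.55 and 3.11 in contralateral rats and 0.93 to 2.35 with a median of 2.03 in CFA, without overlap (-1.44 ± 0.29, adjusted p = 0.196, limma, exact permutation p = 0.00216), and the difference was -1.08 on slide 2. It was detected on 3 contralateral arrays and no CFA array, with a bound of at least 1.32-fold lower in CFA. The - probe of uc.21 was at 0.95 to 0.99 in contralateral ganglia and at 0.99 to 4.47 in CFA. CFA rat 2 was at the contralateral level and CFA rat 1, of slide 2, was highest. For uc.163's + probe contralateral rats 1, 2, 3, 5 and 6 measured 1.94, 1.32, 3.99, 5.69 and 3.22, and CFA ganglia 0.94 to 2.12, so that the groups overlapped. It was detected on 2 contralateral arrays and no CFA array. All 3 were detected on 3 arrays or fewer.

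**Figure D5:**
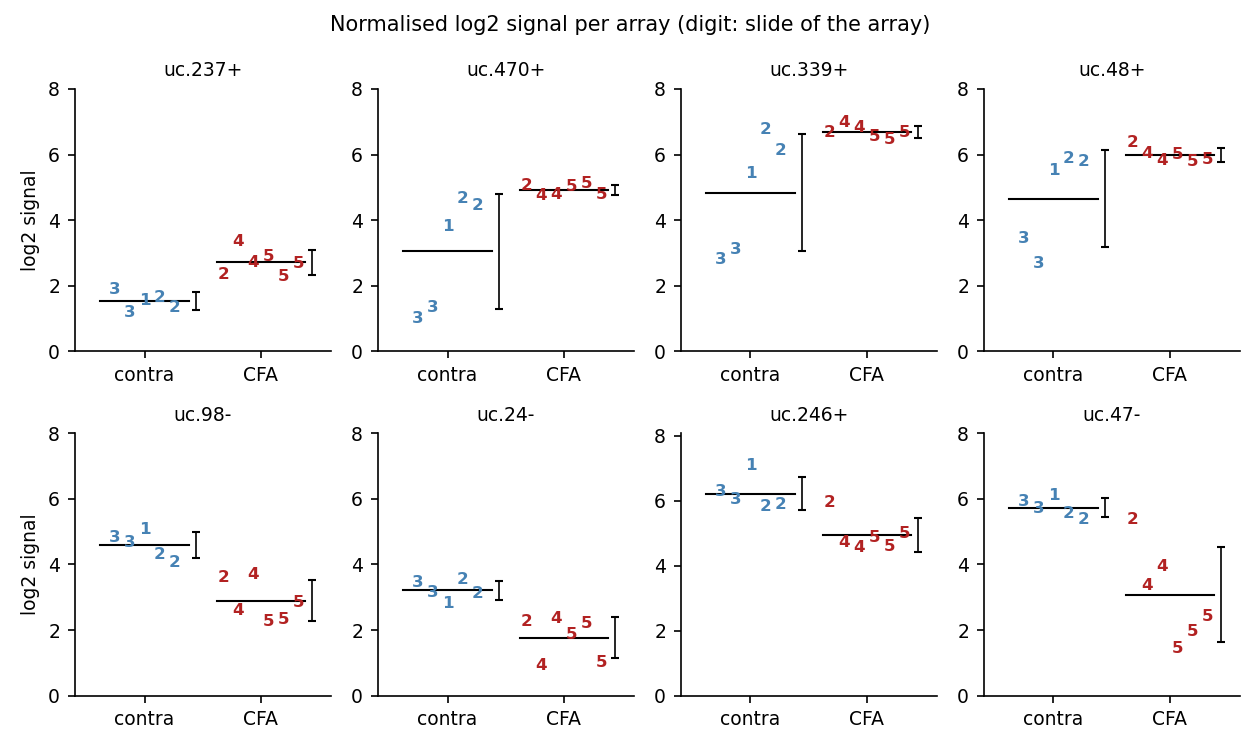
Normalised log2 signal of 8 probes past the study's threshold, each digit being 1 array and giving its slide, with contralateral in blue and CFA in red, a line at the group mean and bars of 1 SD. In the upper row the arrays of slide 3 are the lowest contralateral arrays in all panels but uc.237+, and in the lower row the CFA array of slide 2 lies near the contralateral arrays in uc.246+ and uc.47-.

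In no region did both probes pass the study's threshold, but most partners of a called probe were not detected on all arrays. The partner of a called probe had a change of the same sign in 30 of 62 regions, with a median of -0.03 when counted in the direction of the called probe, and 13 of the 62 partners were detected on all arrays. Over all 481 regions the changes of the strands had the same sign in 247. The difference between the changes (+ minus -) was tested in each region with a two-sided exact permutation test over the arrays. In this test 81 regions (16.8%) had an unadjusted p of 0.05 or less. Of these, 10 were among the 46 regions with both strands detected on all arrays. The test takes all arrays as exchangeable, though only 1 slide held both groups. Pairs of probes from different regions were not tested, so this share has no background beside it. The count therefore does not show how many regions changed differently by strand. Where the + probe lay in the first row band and the - probe in the last, the median difference was 0.58 in 31 regions, and the other way round it was -0.83 in 22 regions, while it was 0.04 where both lay in 1 band. Of the 81 regions 19 had both probes in 1 band (15.4% of such pairs) and 62 had not (17.3%).

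In the named regions, chosen for the change of 1 strand, the differences are a description. Where the + probe was higher, uc.339's difference was 2.01, that of uc.470 was 1.32 and that of uc.193 was 1.18, and all 3 had the - probe detected on all arrays. The + probe of uc.193 was well above background on no contralateral array, and the difference of uc.193 turned to -0.074 with no background correction, -0.14 with normexp and -0.18 with a floor of 16. Where the - probe was lower, the difference was 2.05 in uc.47, whose + probe was detected on all arrays, 2.55 in uc.400, 1.61 in uc.98 and 1.81 in uc.392. With a lower + probe, uc.225's difference was -3.16. In uc.400, uc.98, uc.392 and this last region the other strand was detected on no array, and in uc.98 and uc.392 neither strand was detected on a CFA array, so that these differences hold signals that were not well above background. The probes of uc.47 lay in the same row band, and those of the other regions named here did not.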

How the data were processed

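The authors deposited the intensity of each spot, from Agilent Feature Extraction 11.0.1.1 by the headers, with background subtracted, low values set to a floor and no normalisation between arrays. A quantile-normalised table of intensities, also deposited, served as an alternative. Control spots were left out. Processed signals were put on the log2 scale and quantile normalised over 42136 spots, with spots marked as outliers set to missing, and spots were averaged per probe. All 24684 probes were tested in limma 3.58.1 (R 4.3.3) without covariates, with Benjamini-Hochberg adjustment over all of them. A fold is bounded where 1 group has no array well above background: the bright group's mean is set against the higher of the lowest signal well above background and the dim probe's own signal. That mean includes arrays of the bright group that were not well above background. The bound does not allow for slide or for other background settings. Tables and figures were made with Python 3.11.15, pandas 2.3.3 and matplotlib 3.10.9.

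Named probes were the 8 smallest p among those past the study's threshold in each direction, the uc. transcripts of the study's list of largest changes, the other strand of each, regions without overlap in both strands (uc.392, whose + probe was detected on no array), regions chosen by detection and level, and 7 known from cancer. Probes named outside this rule were chosen after their values were seen. Members and lists were chosen with earlier results of these data known. Gene symbols came from RefSeq. Equal rat numbers were taken as the same animal. After removal of group means the sides of a rat correlated from -0.083 to 0.13, over 0.1 in 1 of 5 rats. In none of them did the CFA ganglion correlate best with the contralateral ganglion of its own number. The study names no pairing, so the rat is a block in an alternative only. Alternatives were background correction, scaling, a floor, filters, position, slide, scan day, detection rule and leaving out each array. The number of arrays limits the precision.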

Additional observations from a re-analysis of the deposited data

Results flagged for a closer look

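Within the named probes, each group of arrays was searched for a single array far from the others (Dixon's test at its 95% critical value), which by chance marks about 1 in 20 groups. Of 144 groups 15 were marked. Values are normalised log2 signals. In groups with at least 1 array well above background, CFA rat 1 stood apart in uc.246+ (5.93), in uc.193+ (2.57) and in uc.338's + probe (2.73) and - probe (2.498). The CFA arrays well above background numbered 6 in uc.246+, 4 in uc.193+ and 5 for each of uc.338's probes. CFA rat 1 is on slide 2, apart from the other CFA arrays. For uc.475's - probe contralateral rat 6 (4.11) was the 1 array detected.

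In the other 10 groups no array was well above background: uc.151+ in contralateral rat 3 (2.21), uc.98+ in CFA rat 1 (1.18), uc.400+ in contralateral rat 5 (3.24), uc.125+ in CFA rat 3 (1.95) and contralateral rat 6 (2.26), uc.428- in contralateral rat 5 (2.97), uc.432- in CFA rat 1 (3.30), uc.144+ in CFA rat 2 (1.34), and uc.160+ in CFA rat 6 (1.87) and contralateral rat 2 (1.97).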

How the results depend on the processing

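The 62 probes past the study's threshold became 0 with no background correction and 0 with normexp (both added after seeing the data; 131 and 110 had an unadjusted p of 0.05 or less, 0 an adjusted one), 9 with a floor of 16 and 26 of 341 with dim probes left out, and 47 to 93 without single arrays. With the replicate block (pairing by rat, without CFA rat 8) 46 passed, 42 of them shared, and 0 passed the adjusted p. The adjusted p was passed by 16 with the slide block, which compares CFA rat 1 alone with 2 contralateral arrays (0.28% over all probes), by 11 with the scan day block (0.142%) and by 0 to 16 without single arrays. Probes without overlap numbered 18, then 7 with 75th percentile scaling, 6 with the floor, 11 with row-band centring, 9 with centring within signal classes and 6 with dim probes left out. Without single arrays they numbered 18 to 74 (1.87% to 7.69%, against 1.32% to 4.43% over all probes). Where no share over all probes stands beside a count here, the count does not show whether these probes differ from others under that setting. The median change of the + probes was 0.020 with centring within signal classes, and that of the - probes was -0.0058 with normexp, 0.013 with 75th percentile scaling, 0 with the floor and 0.018 with centring within signal classes. Regions with both strands on all arrays numbered 107 by the scanner's positive-and-significant flag and 11 by a processed signal of 64 or more. With + on all and - on none there were 8 and 25, with - on all and + on none 6 by the flag and 51 over contralateral arrays alone, and with neither on any array 3 and 299. Regions with a strand difference at p of 0.05 or less numbered 52 with the slide block, 36 with the scan day block and 17 with dim probes left out.

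Among named values past their threshold, signs turned in the strand difference of uc.193 (-0.074 with no background correction, -0.14 with normexp, -0.18 with the floor), in that of uc.125 (-0.29 with the slide block and within slide 2, -0.029 with the scan day block) and in uc.246+ (0.081 with the slide block and within slide 2). Within slide 2, 41 of the 62 called probes had the sign of the whole comparison. The causes were not tested. Low signal limits these results, since 54 of the 62 called probes lay in the dimmest class of signal.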

Other observations

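Single arrays can carry a whole value. The - probe of uc.146, chosen after its values were seen, measured 15.62 in CFA rat 5 and 0.99 to 1.05 on the other 10 arrays, and it gave a log2 change of 2.45 that did not pass the study's threshold (limma, unadjusted p = 0.338). The - probe of uc.168 measured 7.25 in CFA rat 3 and 0.96 to 1.21 elsewhere. Each has 1 spot on the array, so neither value has a second spot beside it.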
